A study of Homo sapiens with 18 samples.

Results

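A set of 47 genes that serve ribosome biogenesis and RNA polymerase I was followed in 3 human pancreatic cancer cell lines treated with the kinase inhibitor THZ1. The genes were taken by name from the 17026 endogenous rows of the deposited expression table, and all 47 had a row. By role they comprised 8 genes of RNA polymerase I and its factors, 6 proteins of small nucleolar ribonucleoproteins (snoRNPs) and their chaperone, 11 assembly factors of the small ribosomal subunit and 14 of the large. The remaining 5 were nucleolar phosphoproteins and regulators and 3 were enzymes of polyamine and pyrimidine synthesis. The rule is a list of gene names and uses no measured value, though the list was chosen with earlier results of these data known. All 47 passed the filter on low values (at least 1 in at least 3 libraries).

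Ribosomes are assembled in the nucleolus, where RNA polymerase I transcribes the long precursor of most ribosomal RNAs. The precursor is modified by box C/D and box H/ACA snoRNPs, cut and trimmed, and folded onto ribosomal proteins with the help of assembly factors that leave before the subunits mature. All 47 genes are themselves transcribed by RNA polymerase II, so the data below are levels of their messenger RNAs and not of ribosomal RNA, ribosomes or polymerase I activity. In growing tumour cells many of these genes are known targets of MYC.

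The labels name BxPC-3, PANC-1 and MIA PaCa-2 as pancreatic ductal adenocarcinoma lines, and cultures of each received THZ1 at 100 nM or DMSO, its solvent, for 6 h. THZ1 binds CDK7 covalently, and CDK12 and CDK13 as well. CDK7 is part of TFIIH, and all these kinases act on RNA polymerase II. There were 6 groups of 3 libraries, described as biological triplicates. All groups shared the same medium, F12 with serum, beta-glycerophosphate and ascorbic acid. ERCC control RNAs were added to the extracted total RNA, so they report on RNA and not on cell number. In these bulk cultures, fewer cells of a kind and less RNA per cell cannot be told apart.

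Recovered reads ran from 6352482 to 20910423 per library. The shallowest library, DMSO replicate 1 of PANC-1, stood apart: its values scattered about those of its group with a log2 SD of 0.563, against 0.106 to 0.327 in the other 17. Without it, 20 of the 47 PANC-1 log2 fold changes changed sign, 20 others moved by over 1.5 times and 6 genes gained a call, so PANC-1 values are also given without it for several of the genes described singly. The spread of that library also enters the error estimate that all groups share, so it bears on calls in the other lines too. Of 5 epithelial marker genes, 4 had a row. KRT8 and KRT18 lay above 160 in every library, while CDH1 was at 0.216 or less in all MIA PaCa-2 libraries and at 1.96 to 4.89 in PANC-1. Of 8 leukocyte, endothelial and fibroblast markers, 4 had a row, and they differed in order: COL1A2 and COL3A1 were high in MIA PaCa-2 (48.9 to 93.4 and 119 to 246), whereas COL1A1 was at 0.766 to 2.21 there, 8.96 to 16.95 in BxPC-3 and 22.03 to 53.8 in PANC-1. VWF was at 1.29 or less except in 1 PANC-1 control, at 6.79.

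Values are given on the scale of the table, which brings nearly the same rank to 1 in every library (7071 to 7191 rows lay above it), rescaled by 1 factor that brings the average library total to 1000000. A difference is a log2 fold change of THZ1 over DMSO from limma on log2 of the value plus 1, and a gene is called higher or lower at an adjusted p under 0.05 over all 15354 genes tested. The verbs rose and fell are used for such calls on this scale. The choice of scale matters here. In controls the ERCC sum was 2330 ± 198 (SD, n = 3) for BxPC-3, 1792 ± 114 for MIA PaCa-2 and 2217 ± 323 for PANC-1. In treated cultures it was 5322 ± 389.7, 4442 ± 832 and 2710 ± 461. A library scaled to its ERCC sum therefore shows lower values with THZ1 for most genes. Over all genes tested, the median log2 fold change was 0.25 for BxPC-3, 0.19 for MIA PaCa-2 and -0.07 for PANC-1 on the deposited scale, and -0.64, -0.85 and -0.32 on the ERCC scale. Results are given on both.

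On the deposited scale some genes of the pathway rose and others fell, as did genes at large. In BxPC-3, 22 of the 47 genes rose (46.8%) where 40% of all genes tested did, and 14 fell (29.8%) where 18.9% did. In MIA PaCa-2, 24 rose (51.1%) where 36.5% of all genes did, and 12 fell (25.5%) where 19.8% did. In PANC-1 only WDR74 rose, where 0.274% of all genes did, and none fell, where 0.228% did. At an unadjusted p under 0.05, 6 were higher and 3 lower in PANC-1, and of the count tests on recovered reads edgeR called 1 and 0 on the deposited scale and 0 and 0 with TMM factors, and DESeq2 1 and 0. The median log2 fold change of the 47 genes was 0.23 for BxPC-3, 0.27 for MIA PaCa-2 and 0.03 for PANC-1.

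Scaled to the ERCC sum, no gene of the 47 was called higher in any line by limma, and none at an unadjusted p under 0.05, where 1.31%, 1.37% and 0.0383% of all genes were called. There 35 were called lower in BxPC-3, where 58.7% of all genes were, 40 in MIA PaCa-2, where 73.3% were, and 7 in PANC-1, where 18% were. The medians were -0.94, -1.0 and -0.26. The division held on both scales, as it must, since a change of scale moves all genes of a line by nearly the same amount. Every gene that fell on the deposited scale, 14 for BxPC-3 and 12 for MIA PaCa-2, was called lower on all 5 scales tried: deposited, ERCC, equal sums, TMM factors and DESeq2 factors. The genes not called lower on the ERCC scale numbered 12 for BxPC-3 and 7 for MIA PaCa-2, and each of these had risen on the deposited scale. Both outcomes follow largely from the downward shift of the other scales in these lines and are no added support. The direction of the genes that rose thus depends on the scale, and their height above the genes that fell does not.

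**Figure D1:**
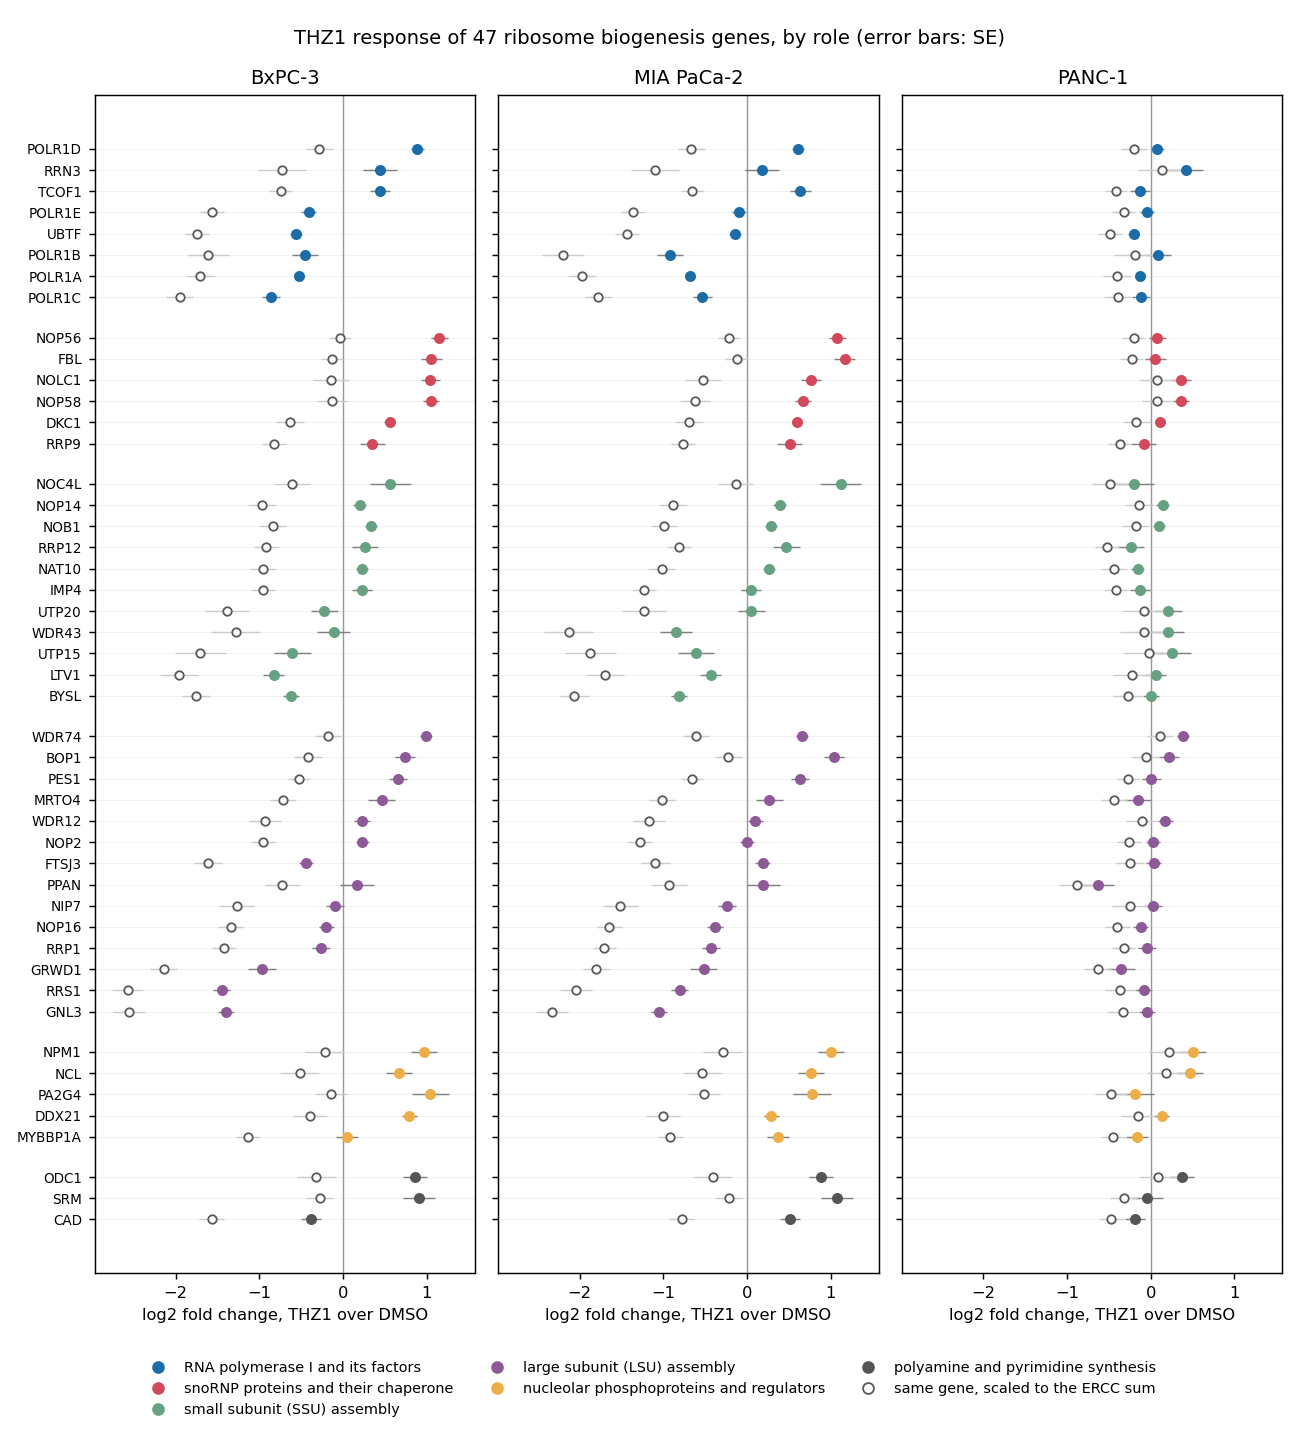
Log2 fold change of THZ1 over DMSO for each of the 47 genes (rows, grouped by role) in the 3 lines (panels), with SE bars. Filled points are on the deposited scale and open points are scaled to the ERCC sum; in BxPC-3 and MIA PaCa-2 the open points lie to the left of the filled ones, and in PANC-1 both sets stay within 1 unit of 0.

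The calls overlapped between BxPC-3 and MIA PaCa-2. The lines share no library, but their tests share 1 error estimate per gene, so the calls are not independent. The same 19 genes rose in both: BOP1, DDX21, DKC1, FBL, NAT10, NCL, NOB1, NOLC1, NOP14, NOP56, NOP58, NPM1, ODC1, PA2G4, PES1, POLR1D, SRM, TCOF1 and WDR74 (40.4%, where 29% of all genes tested did). The same 10 fell in both: BYSL, GNL3, GRWD1, LTV1, POLR1A, POLR1B, POLR1C, RRP1, RRS1 and UTP15 (21.3%, where 12.7% of all genes did). These 10 were also lower in both lines on all 5 scales, as the downward shift of the other scales implies. MRTO4, NOP2 and WDR12 rose in BxPC-3 alone and MYBBP1A, NOC4L, RRP12 and RRP9 in MIA PaCa-2 alone. FTSJ3, POLR1E and UBTF fell in BxPC-3 alone and NOP16 and WDR43 in MIA PaCa-2 alone. CAD was called in opposite directions, and IMP4, NIP7, PPAN, RRN3 and UTP20 in neither line. A call in 1 line alone does not show that the lines differ, which is tested further on. Nor does a missed call show that nothing changed, as the shared error includes PANC-1 DMSO replicate 1. Without that library 27 genes were called higher and 16 lower in BxPC-3, and 27 and 14 in MIA PaCa-2. The shares of all genes called there are not given, so these counts are no measure of the group.

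**Figure D2:**
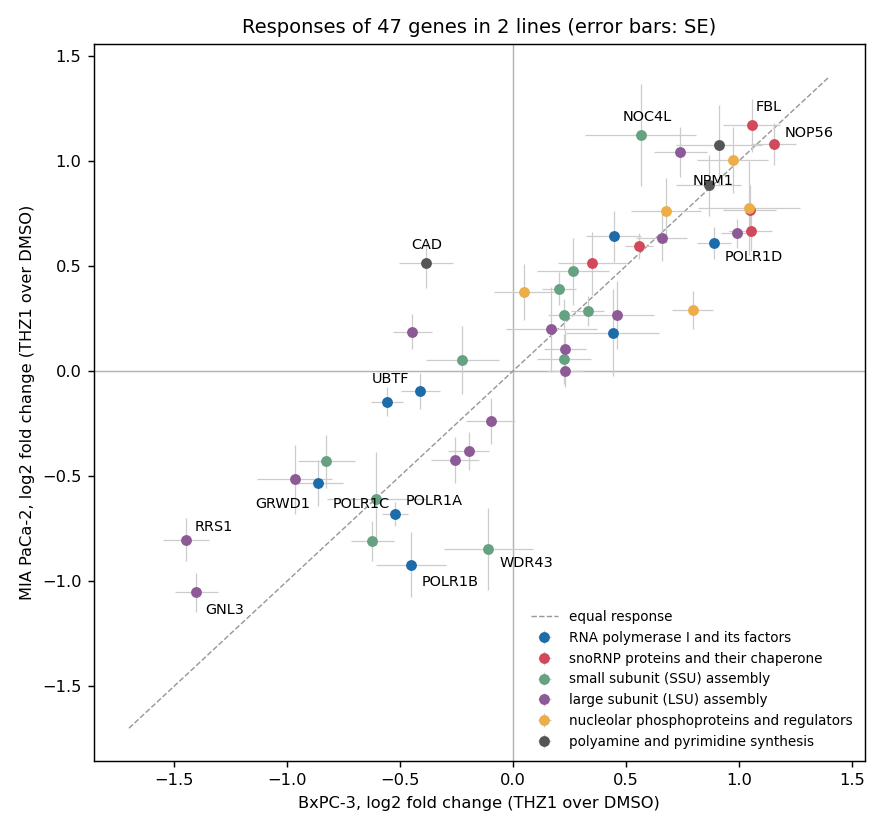
Log2 fold change on the deposited scale in MIA PaCa-2 (vertical) against BxPC-3 (horizontal) for the 47 genes, coloured by role, with SE bars and a dashed line of equal response. The snoRNP proteins sit at the upper right, GNL3 and RRS1 at the lower left, and CAD alone well inside the upper left quadrant (-0.39 in BxPC-3, 0.51 in MIA PaCa-2).

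Within RNA polymerase I, the catalytic core fell in BxPC-3 and MIA PaCa-2 while a subunit shared with RNA polymerase III rose. Of the 8 genes, 2 rose and 5 fell in BxPC-3, 2 rose and 3 fell in MIA PaCa-2, and none was called in PANC-1 by limma, where the lowest adjusted p was 0.138, for UBTF. With ERCC scaling 7, 8 and 2 of the 8 were called lower and none higher. POLR1A encodes the largest subunit, which carries much of the active site. It stood at 166, 154 and 155 with DMSO and 108, 111 and 111 with THZ1 in BxPC-3. In MIA PaCa-2 it stood at 231, 227 and 232 with DMSO and 138, 145 and 146 with THZ1, and in PANC-1 at 197, 196 and 199.8 with DMSO and 176, 184 and 183 with THZ1. The libraries did not overlap in any line, but the drop in PANC-1 was small. The log2 fold changes were -0.52 ± 0.06 (SE; adjusted p = 1.18e-06), -0.68 ± 0.06 (SE; adjusted p = 8.99e-08) and -0.12 ± 0.06 (SE; adjusted p = 0.226) in that order of lines.

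POLR1B, the second largest subunit and the partner of POLR1A in the catalytic centre, stood at 49.1, 46.6 and 50.04 with DMSO and 35.7, 35.3 and 34.7 with THZ1 in BxPC-3. POLR1B in MIA PaCa-2 stood at 84.7, 87.97 and 86.5 with DMSO and 43.1, 47.1 and 45.1 with THZ1. All treated libraries were below all controls in both, by 1.37-fold and 1.89-fold (-0.45 ± 0.15 (SE; adjusted p = 0.0185) and -0.92 ± 0.15 (SE; adjusted p = 9.13e-05)). The call in BxPC-3 was lost when DMSO replicate 3 of that line was left out. In PANC-1 POLR1B stood at 31.9, 53.7 and 61.1 with DMSO and 49.5, 51.8 and 49.1 with THZ1, and the groups overlapped because DMSO replicate 1 was the lowest of the 6 libraries. Without that library its log2 fold change was -0.19 (adjusted p = 0.0907) in place of 0.09.

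POLR1C and POLR1D form the assembly platform that polymerases I and III share, and they went opposite ways. POLR1C stood at 18.6, 20.7 and 21.1 with DMSO and 9.58, 10.5 and 11.9 with THZ1 in BxPC-3 and at 29.1, 26.9 and 27.7 with DMSO and 17.6, 19.6 and 19.8 with THZ1 in MIA PaCa-2, no overlap in either (-0.86 ± 0.11 (SE; adjusted p = 4.99e-06) and -0.53 ± 0.11 (SE; adjusted p = 0.000638)). POLR1D stood at 44.1, 44.2 and 46.7 with DMSO and 85.5, 83.6 and 83.5 with THZ1 in BxPC-3 and at 48.4, 45.01 and 46.1 with DMSO and 72.1, 67.6 and 74.6 with THZ1 in MIA PaCa-2, again without overlap (0.89 ± 0.07 (SE; adjusted p = 4.16e-08) and 0.61 ± 0.07 (SE; adjusted p = 3.75e-06)). Scaled to ERCC, POLR1D was at -0.28 (adjusted p = 0.133) and -0.67 (adjusted p = 0.000985), so that its rise in MIA PaCa-2 became a fall, while POLR1C was at -1.95 and -1.78. In PANC-1 neither moved beyond its spread: POLR1C stood at 26.05, 21.1 and 20.2 with DMSO and 21.5, 18.5 and 21.4 with THZ1, and POLR1D at 35.5, 33.3 and 33.9 with DMSO and 39.6, 35.2 and 33.95 with THZ1.

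POLR1E (PAF53), a subunit found in polymerase I alone, stood at 45.4, 45.3 and 39.2 with DMSO and 30.6, 31.99 and 34.2 with THZ1 in BxPC-3, a fall of -0.41 ± 0.09 (SE; adjusted p = 0.000668). POLR1E in MIA PaCa-2 stood at 43.1, 43.8 and 42.96 with DMSO and 42.5, 38.9 and 39.9 with THZ1, lower in every treated library by a margin that did not pass the test (-0.10 ± 0.09 (SE; adjusted p = 0.362)). In PANC-1, where its level was highest, it stood at 130.2, 113 and 108 with DMSO and 116, 106 and 118 with THZ1. UBTF, the factor that binds ribosomal DNA and keeps its genes open, stood at 133, 140.03 and 141 with DMSO and 92.4, 94.8 and 92.8 with THZ1 in BxPC-3 (-0.56 ± 0.07 (SE; adjusted p = 4.52e-06)). UBTF in MIA PaCa-2 stood at 205, 199 and 205 with DMSO and 190.3, 180.1 and 180.5 with THZ1 (-0.15 ± 0.07 (SE; adjusted p = 0.0917)), and in PANC-1 at 198, 183 and 167 with DMSO and 166, 149 and 157 with THZ1 (-0.21 ± 0.07 (SE; adjusted p = 0.138)). Treated libraries were below controls in all 3 lines, and only the BxPC-3 drop was called on the deposited scale. On the ERCC scale UBTF was called lower in all 3.

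RRN3 (TIF-IA) brings polymerase I to its promoter. It stood at 55.9, 57.5 and 54.1 with DMSO and 80.4, 73.1 and 75.3 with THZ1 in BxPC-3 and at 76.9, 85.6 and 83.5 with DMSO and 91.3, 90.99 and 97.03 with THZ1 in MIA PaCa-2. All treated libraries were above all controls there, and neither change passed (0.44 ± 0.21 (SE; adjusted p = 0.0762) and 0.18 ± 0.21 (SE; adjusted p = 0.478)). In PANC-1 RRN3 stood at 45.6, 100.3 and 105 with DMSO and 96.7, 114 and 105 with THZ1, and only DMSO replicate 1 was far from the rest (log2 fold change 0.41 ± 0.21 (SE; adjusted p = 0.241), and 0.03 (adjusted p = 0.864) without it). The table has 3 rows named as RRN3 pseudogenes, so how reads were split among them is uncertain. TCOF1 encodes treacle, a nucleolar partner of UBTF and polymerase I. It stood at 381, 417 and 418 with DMSO and 541, 559 and 556 with THZ1 in BxPC-3 and at 481, 445 and 451 with DMSO and 753, 679 and 717 with THZ1 in MIA PaCa-2 (0.44 ± 0.12 (SE; adjusted p = 0.00494) and 0.64 ± 0.12 (SE; adjusted p = 0.000302)), against 386, 278 and 247 with DMSO and 298, 247 and 273 with THZ1 in PANC-1. This rise was scale dependent: on the ERCC scale TCOF1 was called lower, at -0.75 (adjusted p = 8.99e-05) and -0.65 (adjusted p = 0.000278).

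**Figure D3:**
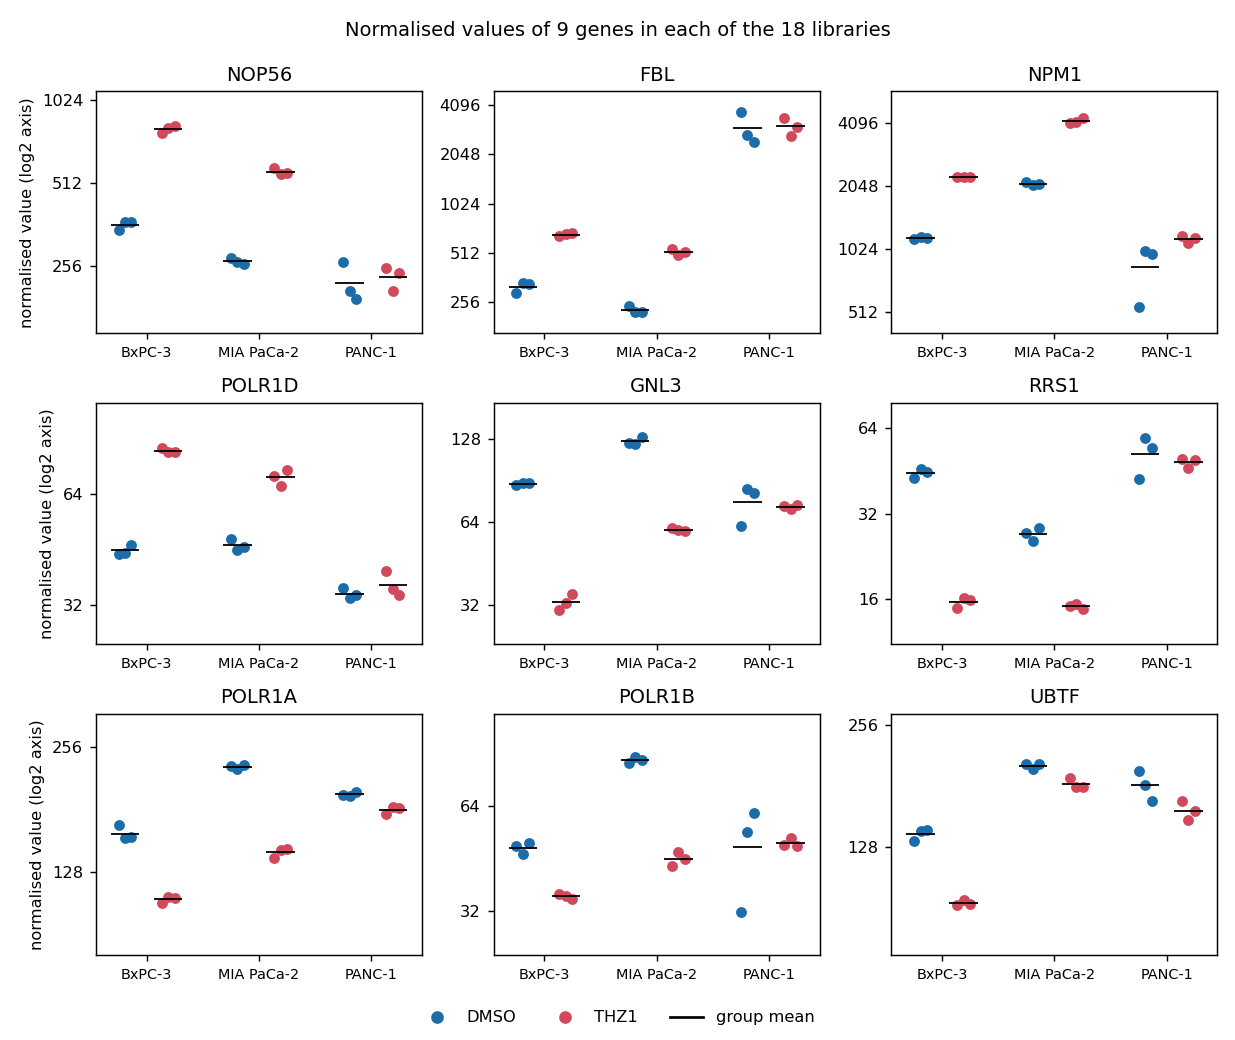
Normalised value (log2 axis) of 9 genes in each library, DMSO in blue and THZ1 in red, with the group mean as a bar. In BxPC-3 and MIA PaCa-2 NOP56, FBL, NPM1 and POLR1D lie higher with THZ1 and GNL3, RRS1, POLR1A, POLR1B and UBTF lower with no overlap, while in PANC-1 the groups overlap for 6 of the 9 genes.

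The snoRNP proteins had the highest median of the 6 roles in BxPC-3, while in MIA PaCa-2 the enzymes (0.88) and the nucleolar proteins (0.76) had higher ones. On the deposited scale 5 of 6 rose in BxPC-3 and 6 of 6 in MIA PaCa-2, where 40% and 36.5% of all genes did. The medians were 1.05 and 0.72. On the ERCC scale none rose and 2 and 4 were called lower, where 58.7% and 73.3% of all genes were. The medians there were -0.14 and -0.58. NOP56, a core protein of box C/D snoRNPs, stood at 344, 369 and 369 with DMSO and 775, 809.8 and 825 with THZ1 in BxPC-3. In MIA PaCa-2 it stood at 274, 263 and 260.2 with DMSO and 578, 552 and 558 with THZ1. The groups were 2.22-fold and 2.11-fold apart without overlap (1.15 ± 0.10 (SE; adjusted p = 5.86e-08) and 1.08 ± 0.10 (SE; adjusted p = 1.85e-07)). In PANC-1 it stood at 265, 207 and 194 with DMSO and 252, 207 and 240.4 with THZ1, with overlap (0.08 ± 0.10 (SE; adjusted p = 0.632)), and without DMSO replicate 1 its log2 fold change was 0.21 (adjusted p = 0.0502). On the ERCC scale NOP56 was at -0.04 (adjusted p = 0.832), -0.21 (adjusted p = 0.156) and -0.21 (adjusted p = 0.266), with no call in any line.

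FBL encodes fibrillarin, the methyltransferase of the same particles. It stood at 290.2, 336 and 329.7 with DMSO and 645, 669.8 and 673 with THZ1 in BxPC-3 and at 244, 222 and 224 with DMSO and 539, 498 and 515 with THZ1 in MIA PaCa-2. Its log2 fold changes were 1.06 ± 0.13 (SE; adjusted p = 2.36e-06) and 1.17 ± 0.13 (SE; adjusted p = 1.01e-06), with the ERCC values at -0.13 and -0.12. In PANC-1, where its level was far higher, FBL stood at 3710, 2701 and 2425 with DMSO and 3416, 2662 and 2996 with THZ1, and the treated libraries lay inside the range of the controls. NOP58, the other core protein of box C/D particles, stood at 109.6, 118 and 114 with DMSO and 234, 242 and 236 with THZ1 in BxPC-3 and at 176, 169 and 167 with DMSO and 276, 271 and 267 with THZ1 in MIA PaCa-2 (1.05 ± 0.09 (SE; adjusted p = 8.97e-08) and 0.67 ± 0.09 (SE; adjusted p = 1.7e-05)). In PANC-1 NOP58 stood at 128, 176 and 165 with DMSO and 216, 189 and 195 with THZ1, with all treated libraries above all controls (0.36 ± 0.09 (SE; adjusted p = 0.0792)). Without PANC-1 DMSO replicate 1 that difference was called, at 0.23 (adjusted p = 0.0198).

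NOLC1, a nucleolar chaperone of snoRNPs, rose by 1.05 for BxPC-3 and by 0.76 for MIA PaCa-2 on the log2 scale. DKC1, the pseudouridine synthase of box H/ACA particles, rose by 0.56 and 0.59. RRP9, a protein of the U3 particle that guides the early cuts of the precursor, rose in MIA PaCa-2 (0.51 ± 0.15 (SE; adjusted p = 0.00875)) and missed the threshold in BxPC-3 (0.35 ± 0.15 (SE; adjusted p = 0.0568)). With ERCC scaling DKC1 and RRP9 were called lower in both lines and NOLC1 only in MIA PaCa-2. In PANC-1 NOLC1 stood at 199.999, 307 and 316 with DMSO and 341, 346 and 351 with THZ1, and without DMSO replicate 1 its difference was 0.15 (adjusted p = 0.0348).

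Small subunit factors divided by a wide margin. Of 11, 3 rose and 3 fell in BxPC-3 and 5 rose and 4 fell in MIA PaCa-2 on the deposited scale. Of all genes, 40% rose and 18.9% fell in BxPC-3, and 36.5% and 19.8% in MIA PaCa-2. On the ERCC scale 11 and 10 factors were called lower, where 58.7% and 73.3% of all genes were. The factors that fell in both lines were BYSL, LTV1 and UTP15. BYSL (the human counterpart of yeast Enp1) and LTV1 travel with the late precursor of the small subunit to the cytoplasm. BYSL stood at 29.6, 31.8 and 30.9 with DMSO and 17.8, 20.3 and 20.8 with THZ1 in BxPC-3 and at 36.05, 40.2 and 38.8 with DMSO and 22.1, 22.9 and 19.4 with THZ1 in MIA PaCa-2 (-0.62 ± 0.09 (SE; adjusted p = 3.1e-05) and -0.81 ± 0.09 (SE; adjusted p = 2.29e-06)), against 48.1, 53.4 and 55.003 with DMSO and 57.01, 47.9 and 52.3 with THZ1 in PANC-1. LTV1 stood at 33.6, 34.6 and 36.7 with DMSO and 20.1, 18.7 and 19.1 with THZ1 in BxPC-3 and at 44.7, 46.1 and 45.1 with DMSO and 30.96, 33.1 and 36.2 with THZ1 in MIA PaCa-2 (-0.83 ± 0.13 (SE; adjusted p = 3.13e-05) and -0.43 ± 0.13 (SE; adjusted p = 0.00801)). Both genes were without overlap in these lines and overlapped in PANC-1.

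UTP15 and WDR43 belong to the complex that first binds the nascent precursor. UTP15 stood at 19.7, 17.98 and 20.2 with DMSO and 12.5, 10.9 and 13.7 with THZ1 in BxPC-3 and at 51.7, 54.2 and 48.7 with DMSO and 30.5, 33.1 and 36.9 with THZ1 in MIA PaCa-2, no overlap in either (-0.61 ± 0.22 (SE; adjusted p = 0.0256) and -0.61 ± 0.22 (SE; adjusted p = 0.0266)). The call was close to the threshold and was lost in each line when any of 4 of its own libraries was left out. WDR43 stood at 154, 166 and 171 with DMSO and 85.3, 89.5 and 97.8 with THZ1 in MIA PaCa-2, a fall of -0.85 ± 0.20 (SE; adjusted p = 0.00158). In BxPC-3 WDR43 stood at 74.7, 73.8 and 75.96 with DMSO and 74.1, 65.5 and 68.5 with THZ1, with overlap (-0.11 ± 0.20 (SE; adjusted p = 0.655)), and in PANC-1 at 51.3, 102 and 114 with DMSO and 86.4, 109 and 97.3 with THZ1.

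NOC4L, which pairs with NOP14 in the small subunit processome, had the highest response of the small subunit factors in MIA PaCa-2. It stood there at 25.002, 21.2 and 21.7 with DMSO and 52.9, 48.7 and 49.6 with THZ1, a rise of 1.12 ± 0.24 (SE; adjusted p = 0.000982). In BxPC-3 it stood at 60.6, 59.8 and 65.4 with DMSO and 89.8, 91.6 and 94.6 with THZ1, apart but not called (0.56 ± 0.24 (SE; adjusted p = 0.058)), and in PANC-1 at 90.4, 38.4 and 31.4 with DMSO and 47.2, 37.9 and 39.6 with THZ1. The high first value in PANC-1 is that of DMSO replicate 1, without which the log2 fold change went from -0.21 to 0.25 (adjusted p = 0.118). NOP14 itself rose by 0.20 and 0.39, calls that held under 21 and 27 of 33 alternatives, with 6 and 2 of opposite sign. It has an antisense gene with a row of its own, and although the library kit marks strand, whether the counting used it is not given in the sources used here.

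RRP12, an export factor of both subunits, stood at 129, 119 and 115 with DMSO and 184, 156 and 165 with THZ1 in MIA PaCa-2 (0.47 ± 0.16 (SE; adjusted p = 0.0191)). In BxPC-3 it stood at 83.1, 91.6 and 84.1 with DMSO and 97.7, 105 and 109 with THZ1 (0.26 ± 0.16 (SE; adjusted p = 0.169)), and in PANC-1 at 336, 205 and 181 with DMSO and 217, 178 and 194 with THZ1, again with the first control far above the rest (-0.24 with it and 0.02 (adjusted p = 0.91) without it). NAT10, which acetylates the small subunit's ribosomal RNA, rose by 0.23 and 0.27, and NOB1, the endonuclease that makes the final cut at the end of that RNA, by 0.33 and 0.28. These small rises were lost or reversed on other scales: with TMM factors neither gene was called higher in either line. IMP4 and UTP20, both parts of the processome, did not pass in any line (log2 fold changes 0.22, 0.05 and -0.13 for IMP4 and -0.23, 0.05 and 0.21 for UTP20).

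Large subunit factors ran from RRS1 at -1.45 to WDR74 at 0.99 in BxPC-3 on the log2 scale. Of 14 factors, 6 rose and 5 fell in BxPC-3 and 3 rose and 5 fell in MIA PaCa-2. Of all genes, 40% rose and 18.9% fell in BxPC-3, and 36.5% and 19.8% in MIA PaCa-2. On the ERCC scale 13 factors were called lower in each, where 58.7% and 73.3% of all genes were. GNL3 encodes nucleostemin, a GTP-binding nucleolar protein found at high levels in stem and tumour cells. It stood at 86.9, 88.5 and 88.8 with DMSO and 30.8, 32.5 and 35.04 with THZ1 in BxPC-3. GNL3 in MIA PaCa-2 stood at 124, 123 and 129.8 with DMSO and 60.5, 60.003 and 59.1 with THZ1. The treated level was 2.64-fold and 2.08-fold lower (-1.40 ± 0.09 (SE; adjusted p = 3.96e-09) and -1.05 ± 0.09 (SE; adjusted p = 1.34e-07)), the largest fall of the 47 genes in MIA PaCa-2. In PANC-1 GNL3 stood at 61.9, 83.95 and 81.5 with DMSO and 73.1, 71.2 and 73.4 with THZ1. The treated libraries lay inside the range of the controls, and without DMSO replicate 1 they were below the remaining 2 by -0.19 (adjusted p = 0.0607).

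RRS1 helps bring a small ribonucleoprotein particle into the large subunit precursor. It stood at 42.7, 45.8 and 44.9 with DMSO and 14.9, 16.2 and 15.9 with THZ1 in BxPC-3, 2.73-fold lower (-1.45 ± 0.10 (SE; adjusted p = 5.93e-09)), the largest fall of the 47 genes there. RRS1 in MIA PaCa-2 stood at 27.3, 25.6 and 28.6 with DMSO and 15.1, 15.4 and 14.8 with THZ1, 1.74-fold lower (-0.80 ± 0.10 (SE; adjusted p = 5.32e-06)). In PANC-1 it stood at 42.5, 59.1 and 54.6 with DMSO and 50.04, 46.4 and 49.6 with THZ1, with overlap. GRWD1, a chaperone of the ribosomal protein uL3, stood at 145, 157 and 150.3 with DMSO and 76.2, 77.3 and 76.4 with THZ1 in BxPC-3 and at 112, 105 and 109.7 with DMSO and 78.5, 75.8 and 73.6 with THZ1 in MIA PaCa-2 (-0.97 ± 0.16 (SE; adjusted p = 9.24e-05) and -0.52 ± 0.16 (SE; adjusted p = 0.0133)). In PANC-1 GRWD1 stood at 142, 82.5 and 71.5 with DMSO and 78.7, 66.9 and 75.5 with THZ1, where the first control lay far above the other 5 libraries and the groups overlapped (-0.35 with it and -0.06 (adjusted p = 0.672) without it).

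Scaled to ERCC, the drops of GNL3, RRS1 and GRWD1 were larger: -2.56, -2.57 and -2.14 in BxPC-3 and -2.33, -2.04 and -1.80 in MIA PaCa-2. RRP1, a factor of large subunit precursor processing, fell by 0.26 and 0.42. The first of these sat at the threshold (adjusted p = 0.0499) and was called under 18 of 33 alternatives. FTSJ3, an RNA methyltransferase that binds NIP7, fell in BxPC-3 (-0.45 ± 0.09 (SE; adjusted p = 0.000286)), and in MIA PaCa-2 its 3 treated libraries were above the controls without a call (0.19 ± 0.09 (SE; adjusted p = 0.0722)). NOP16 fell in MIA PaCa-2 (-0.38 ± 0.09 (SE; adjusted p = 0.0021)) and missed the threshold in BxPC-3 (-0.20 ± 0.09 (SE; adjusted p = 0.0758)).

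PES1, BOP1 and WDR12 form the PeBoW complex, which is needed to process the precursor of the large subunit. PES1 stood at 124, 137 and 133 with DMSO and 204, 210.4 and 208 with THZ1 in BxPC-3 and at 154, 149.8 and 149 with DMSO and 247, 215 and 243 with THZ1 in MIA PaCa-2 (0.66 ± 0.11 (SE; adjusted p = 9.46e-05) and 0.63 ± 0.11 (SE; adjusted p = 0.000149)). BOP1 rose from 28.1 ± 1.33 (SD, n = 3) to 47.7 ± 4.90 in BxPC-3 and from 27.4 ± 2.37 to 57.5 ± 5.80 in MIA PaCa-2. WDR12, the third partner, rose only in BxPC-3 and by less (0.23 ± 0.09 (SE; adjusted p = 0.0415)). Scaled to ERCC, PES1, BOP1 and WDR12 were at -0.53, -0.42 and -0.94 in BxPC-3 and -0.65, -0.22 and -1.17 in MIA PaCa-2.

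WDR74, a partner of the MTR4 helicase in large subunit maturation, was the 1 gene called in all 3 lines on the deposited scale. It stood at 41.2, 41.9 and 42.2 with DMSO and 83.3, 86.4 and 82.3 with THZ1 in BxPC-3 and at 24.4, 26.5 and 25.2 with DMSO and 43.5, 40.002 and 38.1 with THZ1 in MIA PaCa-2. In PANC-1 it stood at 28.6, 28.4 and 27.6 with DMSO and 38.1, 36.3 and 36.6 with THZ1. Groups did not overlap in any line, and the log2 fold changes were 0.99 ± 0.07 (SE; adjusted p = 7.1e-09), 0.65 ± 0.07 (SE; adjusted p = 9.96e-07) and 0.38 ± 0.07 (SE; adjusted p = 0.0356). With ERCC scaling they were -0.18, -0.60 and 0.11, with a call only in MIA PaCa-2, and there it was lower. The PANC-1 value stayed above 0 under all 33 alternatives but was called in 13 of them, and was not called with TMM factors (adjusted p = 0.0633), DESeq2 factors (0.0824), without the variance trend (0.0599), with the replicate block (0.096), with the 2 PANC-1 groups alone (0.76), or without any 1 of the PANC-1 THZ1 libraries (0.0617 to 0.168).

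Of the other large subunit factors, MRTO4, which holds the place of the stalk protein, and NOP2, a ribosomal RNA methyltransferase, rose in BxPC-3 alone (0.46 ± 0.16 (SE; adjusted p = 0.022) and 0.23 ± 0.08 (SE; adjusted p = 0.0198)). NIP7 did not pass in any line. PPAN had the lowest level of the 47 genes, at 1.65 to 7.59 or 25 to 146 reads, too few to show a small change. It stood at 5.68, 2.55 and 2.77 with DMSO and 1.84, 1.65 and 2.17 with THZ1 in PANC-1, where the treated libraries were below the controls without a call (-0.64 ± 0.20 (SE; adjusted p = 0.119)), and -0.35 (adjusted p = 0.183) without DMSO replicate 1. In BxPC-3 PPAN stood at 2.28, 3.11 and 3.92 with DMSO and 3.43, 4.11 and 3.15 with THZ1 and in MIA PaCa-2 at 5.91, 5.71 and 5.83 with DMSO and 6.50, 7.59 and 6.42 with THZ1.

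The abundant nucleolar proteins rose on the deposited scale, 4 of 5 in BxPC-3 and 5 of 5 in MIA PaCa-2, where 40% and 36.5% of all genes did. On the ERCC scale none did, and 1 and 4 were called lower, where 58.7% and 73.3% of all genes were. NPM1 encodes nucleophosmin, the histone and ribosomal protein chaperone of the outer nucleolus. It stood at 1148, 1173 and 1152 with DMSO and 2269, 2267 and 2276 with THZ1 in BxPC-3. NPM1 in MIA PaCa-2 stood at 2139, 2074 and 2089 with DMSO and 4122, 4151 and 4367 with THZ1. This was 1.96-fold and 2-fold with no overlap (0.97 ± 0.16 (SE; adjusted p = 5.33e-05) and 1.0 ± 0.16 (SE; adjusted p = 4.46e-05)). In PANC-1 it stood at 542, 1000 and 975 with DMSO and 1178, 1097 and 1158 with THZ1: all treated libraries were above all controls, and the first control was far below the other 2. The difference was 0.50 ± 0.16 (SE; adjusted p = 0.115) with that library and 0.21 (adjusted p = 0.00605) without it.

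NCL encodes nucleolin, which binds the nascent precursor. It stood at 1060, 1099 and 1096 with DMSO and 1745, 1716 and 1737 with THZ1 in BxPC-3 and at 1755, 1681 and 1700 with DMSO and 2900, 2871 and 2942 with THZ1 in MIA PaCa-2 (0.67 ± 0.15 (SE; adjusted p = 0.00135) and 0.76 ± 0.15 (SE; adjusted p = 0.000544)). In PANC-1 NCL stood at 584, 1082 and 1042 with DMSO and 1234, 1179 and 1192 with THZ1, 0.47 ± 0.15 (SE; adjusted p = 0.13) with DMSO replicate 1 and 0.18 (adjusted p = 0.0135) without it. The table also has 14 rows named as NPM1 pseudogenes, 1 as an NCL pseudogene and 3 as PA2G4 pseudogenes, so the reads of these genes may have been shared out among near copies. PA2G4 (EBP1), a regulator that binds ribosomes and nucleolar precursors, rose by 1.04 and 0.78. DDX21, an RNA helicase that couples polymerase I and II transcription, rose by 0.80 and 0.29. MYBBP1A, a nucleolar repressor that binds many transcription factors, rose in MIA PaCa-2 alone (0.38 ± 0.13 (SE; adjusted p = 0.0229)).

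Of the 3 enzymes of growth metabolism, ODC1 and SRM rose together and CAD did not. ODC1, the first enzyme of polyamine synthesis, stood at 116, 120.1 and 124 with DMSO and 223, 215 and 220.5 with THZ1 in BxPC-3 and at 236, 238 and 239.97 with DMSO and 438, 451 and 429.7 with THZ1 in MIA PaCa-2 (0.87 ± 0.14 (SE; adjusted p = 7.81e-05) and 0.88 ± 0.14 (SE; adjusted p = 7.44e-05)). SRM, spermidine synthase, stood at 166, 177 and 178 with DMSO and 312, 339.7 and 329.6 with THZ1 in BxPC-3 and at 211, 188 and 191 with DMSO and 443, 396 and 408 with THZ1 in MIA PaCa-2 (0.91 ± 0.19 (SE; adjusted p = 0.000629) and 1.08 ± 0.19 (SE; adjusted p = 0.000155)). On the ERCC scale neither was called in either line (-0.32 and -0.41 for ODC1, -0.28 and -0.21 for SRM). CAD, the enzyme of the first steps of pyrimidine synthesis, stood at 144, 149 and 155 with DMSO and 119, 116 and 107 with THZ1 in BxPC-3 and at 317, 298 and 290.2 with DMSO and 435, 428 and 429 with THZ1 in MIA PaCa-2. It fell in the first (-0.39 ± 0.12 (SE; adjusted p = 0.00976)) and rose in the second (0.51 ± 0.12 (SE; adjusted p = 0.00145)). The difference between the lines was 0.90 ± 0.17 (SE; adjusted p = 0.00173), and on the ERCC scale, where CAD was lower in both, it was 0.79 (adjusted p = 0.0277).

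Ratios of 2 genes within a library do not depend on any scale between libraries, and they show the division directly. The pairs were chosen after their values were seen, so they are a description. The ratio of FBL to GNL3 was 3.34, 3.80 and 3.71 with DMSO and 21.0, 20.6 and 19.2 with THZ1 in BxPC-3. In MIA PaCa-2 it was 1.97, 1.81 and 1.72 against 8.90, 8.29 and 8.71. In PANC-1 it was 59.96, 32.2 and 29.7 against 46.7, 37.4 and 40.8. The groups were far apart in the first 2 lines and overlapped in PANC-1. The geometric mean ratio of NOP56 to RRS1 was 8.11, 9.79 and 4.27 in controls (BxPC-3, then MIA PaCa-2, then PANC-1) and 51.3, 37.2 and 4.77 in the treated cultures. Within polymerase I, the ratio of POLR1D to POLR1A was 0.284, 0.202 and 0.173 in the controls and 0.765, 0.499 and 0.200 in the treated cultures. Between genes such ratios also carry gene length, so only their change between groups is of use.

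**Figure D4:**
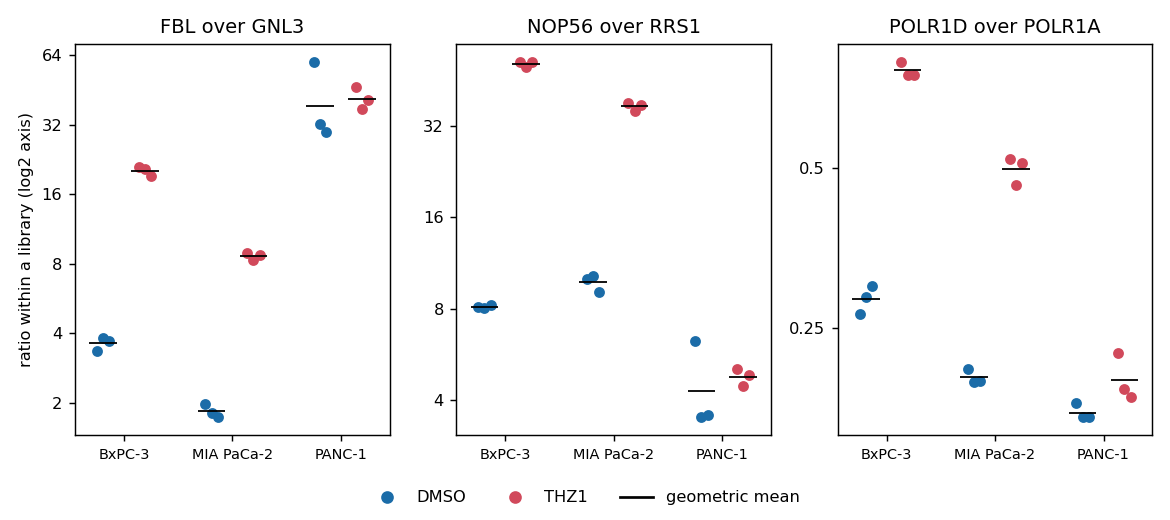
Ratio of 2 genes within each library (log2 axis) for 3 pairs, DMSO in blue and THZ1 in red, with the geometric mean as a bar. In BxPC-3 and MIA PaCa-2 every treated library lies above every control in all 3 panels, and in PANC-1, where the groups lie closer together, this also holds for POLR1D over POLR1A.

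The share of endogenous reads held by the 47 genes as a whole changed little by comparison. It was 0.895% ± 0.017 (SD, n = 3) with DMSO and 0.824% ± 0.0048 with THZ1 for BxPC-3, 1.19% ± 0.012 and 1.17% ± 0.015 for MIA PaCa-2, and 1.18% ± 0.11 and 1.26% ± 0.058 for PANC-1. A few abundant genes weigh heavily in this share. In MIA PaCa-2 the means of NPM1 and NCL were 2101 and 1712 with DMSO, where the 47 genes summed to 9982. With THZ1 they were 4213 and 2904, where the sum was 15464. The share taken by mitochondrial genes moved with treatment. It was 6.58% ± 0.079 for BxPC-3, 6.87% ± 0.074 for MIA PaCa-2 and 5.60% ± 0.055 for PANC-1 in controls, and 9.57% ± 0.11, 9.60% ± 0.28 and 6.36% ± 0.017 in treated cultures. Of the 4 epithelial markers, 4 rose in BxPC-3 while 3 did so in MIA PaCa-2, with none called higher on the ERCC scale. The part of either in the results was not tested.

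The response differed among the 3 lines for 30 of the 47 genes by an F-test on the 2 differences, where 50.6% of all genes tested passed, and for 26 on the ERCC scale, where 42.9% did. The smallest adjusted p-values were those of GNL3 (3.87e-06), RRS1 (9.19e-06), NOP56 (2.32e-05) and POLR1D (5.53e-05). For GNL3 the response in PANC-1 minus that in BxPC-3 was 1.35 ± 0.13 (SE; adjusted p = 2.26e-06), and minus that in MIA PaCa-2 1.0 ± 0.13 (SE; adjusted p = 4.69e-05). For RRS1 these were 1.37 ± 0.14 (SE; adjusted p = 3.56e-06) and 0.72 ± 0.14 (SE; adjusted p = 0.00112). The drop that both genes showed in the other lines was thus larger than any in PANC-1, also on the ERCC scale (2.23 (adjusted p = 5.46e-06) and 2.0 (adjusted p = 1.58e-05) for GNL3).

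For NOP56 the difference ran the other way, -1.08 ± 0.14 (SE; adjusted p = 2.44e-05) against BxPC-3 and -1.0 ± 0.14 (SE; adjusted p = 7.3e-05) against MIA PaCa-2, and for FBL it was -1.0 ± 0.18 (SE; adjusted p = 0.00037) and -1.11 ± 0.18 (SE; adjusted p = 0.000216). On the ERCC scale none of these passed: -0.17 (adjusted p = 0.523) and 0.01 (adjusted p = 0.987) for NOP56 and -0.10 (adjusted p = 0.729) and -0.11 (adjusted p = 0.681) for FBL. In all, the PANC-1 response was called higher than that of BxPC-3 for 11 genes and lower for 16, where 11.9% and 30.8% of all genes were. Scaled to ERCC it was higher for 23, where 28.2% of all genes were, and lower for none. Against MIA PaCa-2 the counts were 9 and 17, where 11.6% and 27.4% of all genes were, and 28 and none on the ERCC scale, where 41.3% of all genes were higher. No gene of the 47 was lower there at an unadjusted p under 0.05 in either difference by limma, where 1.53% and 1.54% of all genes were called lower.

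Between MIA PaCa-2 and BxPC-3 the response differed for 4 genes upward and 2 downward, where 6.14% and 7.66% of all genes did. It was higher in MIA PaCa-2 for CAD, RRS1 (0.65 ± 0.14 (SE; adjusted p = 0.00631)), FTSJ3 (0.63 ± 0.12 (SE; adjusted p = 0.00211)) and UBTF (0.41 ± 0.10 (SE; adjusted p = 0.0109)). It was lower for DDX21 (-0.51 ± 0.13 (SE; adjusted p = 0.0142)) and WDR74 (-0.34 ± 0.10 (SE; adjusted p = 0.0333)). Only CAD passed on the ERCC scale, where 2.36% of all genes were higher and 5.08% lower, and 1 gene was lower at an unadjusted p under 0.05. Without PANC-1 DMSO replicate 1, whose spread enters the shared error, the counts became 11 and 10. Of all genes, 14.9% and 20.9% were called there. The F-test then passed for 41 of the genes followed here. The share of all genes that passed it without that library is not given, so the count of 41 is no measure of the group.

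In PANC-1 alone the call count depended on single control libraries. Without DMSO replicate 1, 7 genes were called higher (NCL, NOLC1, NOP58, NPM1, PA2G4, SRM and WDR74), where 5.63% of all genes were, and none lower, where 1.35% were, with 6 lower at an unadjusted p under 0.05. Without DMSO replicate 2 the counts were 5 and 1, where 3.33% and 2.26% of all genes were called, and without DMSO replicate 3 they were 7 and 3, where 10.5% and 11.3% were. Treated and control libraries did not overlap for 8 genes upward and 4 downward in PANC-1, where 8.34% and 8.73% of all genes did so. The corresponding counts were 27 and 16 in BxPC-3 (51.1% and 25% of all genes) and 28 and 15 in MIA PaCa-2 (47.6% and 26.2%).

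Control levels differed among the lines for 44 of the 47 genes by the F-test, where 79.1% of all genes did, the exceptions being BOP1, IMP4 and PES1. The DMSO mean was highest in MIA PaCa-2 for 25 genes, in PANC-1 for 13 and in BxPC-3 for 9. It was lowest in BxPC-3 for 23. The scale between lines is that of the table, so the order is a description of these libraries. Some ranks of PANC-1 rest on DMSO replicate 1. PA2G4 stood there at 393, 169 and 156, against a BxPC-3 mean of 221, and MRTO4 at 187, 111 and 98.6, against 113. MIA PaCa-2 exceeded BxPC-3 for 25 genes and lay below it for 10, where 37.5% and 25.1% of all genes did. PANC-1 exceeded BxPC-3 for 13 and lay below it for 13 (33.7% and 25.4% of all genes), and it exceeded MIA PaCa-2 for 10 and lay below it for 26 (28% and 32.8%).

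FBL had the widest gap between lines. Its DMSO mean was 2945 ± 677 (SD, n = 3) in PANC-1 against 229.7 ± 12.2 in MIA PaCa-2 and 319 ± 24.9 in BxPC-3. The log2 difference was 3.18 ± 0.13 (SE; adjusted p = 1.39e-12) over BxPC-3 and 3.65 ± 0.13 (SE; adjusted p = 2.93e-13) over MIA PaCa-2, and much the same on the ERCC scale (3.26 (adjusted p = 4.15e-14) and 3.36 (adjusted p = 5.03e-14)). Its 2 partners in the box C/D particle showed no difference of that size: NOP56 was lower in PANC-1 than in BxPC-3 (-0.71 ± 0.10 (SE; adjusted p = 9.99e-06)) and NOP58 was higher by less (0.44 ± 0.09 (SE; adjusted p = 0.000657)). POLR1E was also highest in PANC-1, 117 ± 11.6 against 43.3 ± 3.54 and 43.3 ± 0.465. The difference between BxPC-3 and MIA PaCa-2 in POLR1E did not pass (0.00 ± 0.09 (SE; adjusted p = 0.982)), while both lay below PANC-1 (1.41 ± 0.09 (SE; adjusted p = 3.93e-10) over BxPC-3).

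NPM1 and NCL were highest in MIA PaCa-2, at 2101 ± 34.02 and 1712 ± 38.6. In BxPC-3 they were at 1157 ± 13.8 and 1085 ± 21.8, and in PANC-1 at 839 ± 257 and 903 ± 277. The neighbours BxPC-3 and PANC-1 did not differ beyond their spread for NCL (-0.32 ± 0.15 (SE; adjusted p = 0.0886)). DDX21 ran from 223 ± 5.24 in BxPC-3 through 387 ± 48.02 in PANC-1 to 561 ± 23.1 in MIA PaCa-2, each step past the threshold. NOC4L showed the reverse in MIA PaCa-2, at 22.6 ± 2.06 against 61.9 ± 3.03 in BxPC-3 (-1.42 ± 0.24 (SE; adjusted p = 8.49e-05)). RRP12 was 86.3 ± 4.65, 121 ± 6.88 and 240.5 ± 83.4 in the order BxPC-3, MIA PaCa-2, PANC-1, where the large SD comes with DMSO replicate 1.

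**Figure D5:**
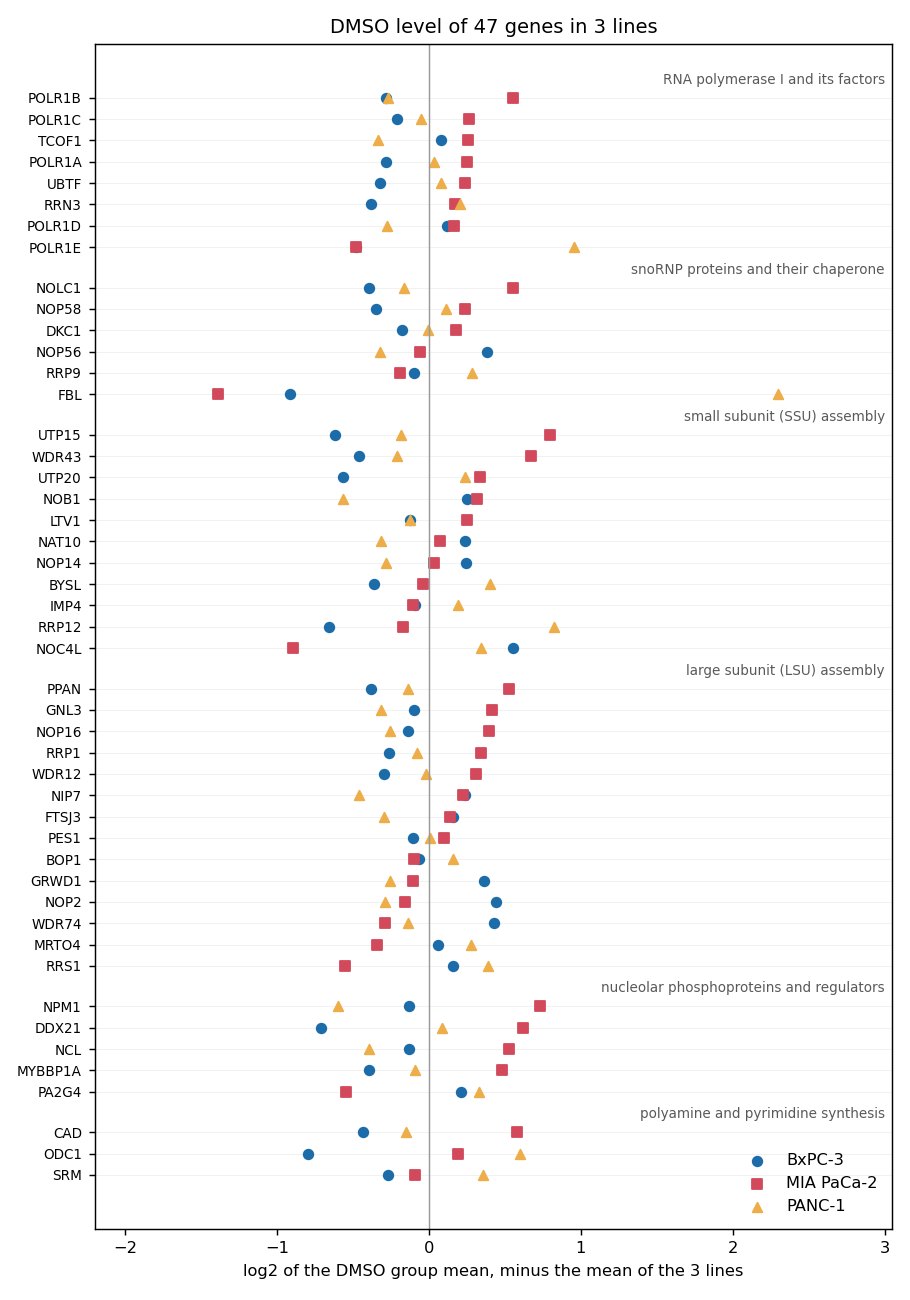
Log2 of the DMSO group mean of each of the 47 genes (rows, by role) in each of the 3 lines, minus the mean of the 3 lines, so that 0 is the average line. Most genes lie within 1 unit of 0, with MIA PaCa-2 to the right for 25 genes, and FBL in PANC-1 lies apart from all others.

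Genes with a high control level tended to be those that rose. Across the 47 genes, Spearman's rho between the mean DMSO level and the log2 fold change was 0.46 for BxPC-3, 0.46 for MIA PaCa-2 and 0.05 for PANC-1, against 0.29, 0.26 and 0.41 across 11769 genes with features. The points share libraries and scale, the level enters the fold change as its denominator, and genes are not independent replicates, so no p is given. The 12 genes with a mean DMSO level of at least 200 had a median log2 fold change of 0.83 for BxPC-3 and 0.76 for MIA PaCa-2, against 0.17 and 0.05 for the other 35. For exon number the relation was near 0 (rho -0.05, 0.04 and -0.03 across the 47 genes). For gene span it was -0.06, -0.11 and 0.25, and for transcript length -0.21, -0.20 and 0.02. Spans, exons and lengths came from the GENCODE 29 annotation.

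On the deposited scale, further genes of the pathway went both ways in shares not far from those of all genes. Of 125 further ribosome biogenesis genes in 5 lists, 55 rose and 33 fell in BxPC-3. The counts were 52 and 24 for MIA PaCa-2 and 1 and 0 for PANC-1, with medians of 0.18, 0.19 and 0.06, beside 40% and 18.9% of all genes tested in BxPC-3 and 36.5% and 19.8% in MIA PaCa-2. With ERCC scaling 102, 115 and 16 of the 125 were called lower, where 58.7%, 73.3% and 18% of all genes were. The shares called lower were thus above those of all genes in BxPC-3 and MIA PaCa-2 and below in PANC-1. None was called higher, where 1.31%, 1.37% and 0.0383% of all genes were. Of 12 other snoRNP genes 8 rose and 1 fell in BxPC-3. NHP2, a core protein of box H/ACA particles and thus a partner of DKC1, was at 1.15 (adjusted p = 6.07e-09) for BxPC-3 and 1.12 (adjusted p = 1.46e-08) for MIA PaCa-2. Of 10 other polymerase I genes, 2 rose and 4 fell in each of the 2 lines. TBP, which polymerases I, II and III all use at promoters, was at -0.89 (adjusted p = 1.81e-06) and -0.76 (adjusted p = 1.23e-05), and TWISTNB, a polymerase I subunit, at 0.93 (adjusted p = 5.66e-07) and 0.39 (adjusted p = 0.00253).

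Among 43 other small subunit genes, 14 rose and 14 fell in BxPC-3 and 14 and 8 in MIA PaCa-2. The shares of all genes, 40% and 18.9% in BxPC-3 and 36.5% and 19.8% in MIA PaCa-2, apply to each list here. IMP3, a partner of IMP4, was the lowest in BxPC-3, at -1.83 (adjusted p = 7.36e-10) against -0.55 (adjusted p = 0.000244) in MIA PaCa-2, where UTP23 was the lowest, at -1.06 (adjusted p = 2.11e-07). Among 45 other large subunit genes, 26 rose and 9 fell in BxPC-3 and 23 and 9 in MIA PaCa-2. SURF6, a nucleolar factor of the large subunit, was the lowest in both lines, at -1.71 (adjusted p = 1.68e-09) and -1.25 (adjusted p = 6.56e-08). NOC2L was the highest in both, at 1.12 (adjusted p = 3.76e-07) and 1.03 (adjusted p = 1.27e-06). Of 15 genes of the exosome and related nucleases, 5 rose and 5 fell in BxPC-3 and 7 and 3 in MIA PaCa-2. EXOSC3, a cap subunit of the exosome, was at -1.62 (adjusted p = 1.28e-09) and -0.78 (adjusted p = 4.41e-06), whereas EXOSC5, a subunit of its ring, was at 0.88 (adjusted p = 5.73e-05) and 0.98 (adjusted p = 2.26e-05).

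Cytosolic ribosomal protein genes encode the proteins that the assembly factors help into place. Of 79 tested, 78 rose and 1 fell in BxPC-3, 79 rose in MIA PaCa-2 and 1 rose in PANC-1, with medians of 1.22, 1.11 and 0.08. Of all genes tested, 40%, 36.5% and 0.274% rose. After ERCC scaling none of the 79 rose and 3, 4 and 2 were called lower, where 58.7%, 73.3% and 18% of all genes were. The medians there were 0.04, -0.19 and -0.19. MYC was at -0.95 (adjusted p = 9.57e-08) in BxPC-3, 0.19 (adjusted p = 0.0685) in MIA PaCa-2 and -0.03 (adjusted p = 0.827) in PANC-1, and at -2.13, -1.10 and -0.31 on the ERCC scale. CDK7 was at -0.43 (adjusted p = 0.0155), 0.02 (adjusted p = 0.937) and 0.11 (adjusted p = 0.643).

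Promoter sequences were available for 40 of the 47 genes in a RefSeq table of assembly GRCh38.p14, each running from 250 bases before the annotated start to 50 after it. They were searched on both strands for 5 short motifs: CACGTG, the E-box that MYC with MAX and several other factors bind, TCGCGA, the core of a palindrome found in many housekeeping promoters, CCGGAAG, a core bound by ETS factors, GGGCGG, the GC box, and CCAAT. The motifs do not contain one another, but matches to different motifs may overlap. CACGTG was present in 14 of the 40 (35%), against 7.26% of all 35116 promoters in the table and 10.1% of 9474 promoters of genes tested. The 14 were BYSL, FBL, IMP4, LTV1, MRTO4, MYBBP1A, NAT10, NOP14, NOP2, PES1, RRP9, SRM, UTP20 and WDR43. TCGCGA was in 15% against 3.12% and 5.92%, and CCGGAAG in 27.5% against 10.3% and 19.2%. GGGCGG was in 70% against 45% and 70.9%, and CCAAT in 35% against 34.6% and 36.4%, shares near those of the genes tested.

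Each motif was found among genes that rose and among genes that fell. CACGTG was in 5 of 15 promoters of genes that rose in both BxPC-3 and MIA PaCa-2 and in 2 of 9 of genes that fell in both. TCGCGA was in 3 of 15 and 3 of 9, CCGGAAG in 3 of 15 and 4 of 9, GGGCGG in 9 of 15 and 8 of 9, and CCAAT in 6 of 15 and 2 of 9. The numbers are small, the difference was not tested, and a match of letters is not evidence that a factor was bound.

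The promoters of the genes with the highest and the lowest mean response over the 3 lines are shown to set the ends of the range beside each other. Bases are 5' to 3' on the strand of the gene, the last 50 bases follow the annotated start, and capitals mark matches to CACGTG or TCGCGA. NPM1 (chr5:171387599-171387898, GRCh38.p14, + strand) and NOP56 (chr20:2652382-2652681, + strand) were the highest, and only the first has a match, a TCGCGA before the start. GNL3 (chr3:52685670-52685969, + strand) and GRWD1 (chr19:48445733-48446032, + strand) were the lowest of those with an entry and have neither. FBL (chr19:39846330-39846629, - strand) is added, a choice made after the search, for its CACGTG, which lies just after the annotated start.
NPM1: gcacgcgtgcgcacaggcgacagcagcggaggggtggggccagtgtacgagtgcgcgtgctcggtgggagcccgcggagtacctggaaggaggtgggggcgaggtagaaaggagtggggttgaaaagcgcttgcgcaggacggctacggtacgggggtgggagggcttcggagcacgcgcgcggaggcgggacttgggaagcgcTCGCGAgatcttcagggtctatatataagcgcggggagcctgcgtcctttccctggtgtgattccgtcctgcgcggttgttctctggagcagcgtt
NOP56: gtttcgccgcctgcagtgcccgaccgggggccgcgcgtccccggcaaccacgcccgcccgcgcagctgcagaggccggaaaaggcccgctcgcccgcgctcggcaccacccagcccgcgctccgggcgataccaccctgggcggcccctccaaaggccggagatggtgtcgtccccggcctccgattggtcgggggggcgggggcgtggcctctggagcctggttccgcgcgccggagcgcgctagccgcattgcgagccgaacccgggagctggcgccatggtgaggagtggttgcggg
GNL3: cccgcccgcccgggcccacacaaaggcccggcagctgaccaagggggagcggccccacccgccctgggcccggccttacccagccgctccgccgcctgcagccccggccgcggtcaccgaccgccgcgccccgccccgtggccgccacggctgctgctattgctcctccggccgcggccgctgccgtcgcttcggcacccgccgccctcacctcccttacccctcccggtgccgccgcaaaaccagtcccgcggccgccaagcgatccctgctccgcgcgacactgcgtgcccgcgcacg
GRWD1: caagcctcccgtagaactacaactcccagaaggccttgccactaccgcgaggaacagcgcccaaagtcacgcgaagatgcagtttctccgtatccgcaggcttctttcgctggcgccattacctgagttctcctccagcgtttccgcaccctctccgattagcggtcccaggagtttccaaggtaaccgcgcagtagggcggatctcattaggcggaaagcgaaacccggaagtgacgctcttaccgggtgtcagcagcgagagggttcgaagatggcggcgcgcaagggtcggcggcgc
FBL: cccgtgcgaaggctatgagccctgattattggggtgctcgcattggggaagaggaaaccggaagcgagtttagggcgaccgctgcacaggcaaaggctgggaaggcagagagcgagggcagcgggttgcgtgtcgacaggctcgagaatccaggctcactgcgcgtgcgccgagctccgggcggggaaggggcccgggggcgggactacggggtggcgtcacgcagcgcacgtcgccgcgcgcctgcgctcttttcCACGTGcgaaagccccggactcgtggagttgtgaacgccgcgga
All 5 windows are rich in G and C, at 66% in NPM1, 76.3% in NOP56, 79% in GNL3, 60.3% in GRWD1 and 67.7% in FBL, with no order that follows the response.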

How the data were processed

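Messenger RNA of 18 cell cultures was sequenced with a stranded kit after ERCC controls were added to total RNA, per the labels' protocols. Reads were aligned with STAR to hg19, per the submitters' processing notes; for the counter, annotation, filter and scaling nothing is given in the sources used here. The deposited values are a normalised signal: in each library they were whole reads divided by a whole number (112 to 437), and all came out whole within 0.001. The unit had not been foreseen as such, so limma on log2 values is the main test, and count tests on the recovered reads are alternatives. The authors also deposited log2 ratios and a mean level, which were not used. Values were multiplied by 17.6795. There were 38 ERCC rows, and 22 rows with names turned into dates were kept unnamed.

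The 47 genes and all lists were chosen with earlier results of these data known. limma 3.58.1 (R 4.3.3) fitted 6 group means with a variance trend to log2 of the value plus 1, for genes at 1 or more in at least 3 libraries, with Benjamini-Hochberg adjustment at 0.05; fold changes on this scale understate low genes. Samples carry separate replicate labels, and p-values measure the spread between these cultures. Alternatives changed scale, filter, pseudocount (0.25 and 5), trend, block, weights and samples, or used edgeR 4.0.16 and DESeq2 1.42.0. The fit was tested on simulated data. Given with every library are, in each line, the 3 genes with the highest and 3 with the lowest fold change, the 4 with the smallest p for a difference between lines, and the 8 polymerase I genes; of other lists, the 2 highest and 2 lowest mean fold changes, with MYC and CDK7. Depth was 6352482 to 20910423 reads per library.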

Additional observations from a re-analysis of the deposited data

Results flagged for a closer look

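The response to THZ1 differed between the 3 lines, by limma's F-test on the differences of log2 fold changes, for 16 of the 20 genes given with every library. Of all genes tested, 50.6% passed. GNL3, RRS1, NOP56 and POLR1D were among the 20 for their small p in this same test, and others for extreme fold changes. The count of 16 is therefore no measure of the group. In RNA polymerase I the adjusted p was 5.53e-05 for POLR1D, 0.000165 for POLR1A, 0.00345 for POLR1C, 0.00402 for TCOF1, 0.00423 for POLR1B, 0.00556 for UBTF and 0.0371 for POLR1E. Among snoRNP proteins it was 2.32e-05 for NOP56, 0.000175 for FBL and 0.00178 for NOP58. Among assembly factors it was 3.87e-06 for GNL3, 9.19e-06 for RRS1, 0.0134 for WDR43, 0.0142 for NOC4L, 0.0332 for PPAN and 0.0372 for RRP12.

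On the ERCC scale all 10 genes that fell in both BxPC-3 and MIA PaCa-2 passed this test, with an adjusted p of 4.76e-06 for GNL3, 7.53e-06 for RRS1 and 6.78e-05 for POLR1A. Of the 19 that rose in both, 3 passed it there (NOB1, NOP14 and WDR74), and others did not, at 0.66 for NOP56, 0.863 for FBL and 0.186 for POLR1D. On that scale 42.9% of all genes tested passed. Both sets were picked by their calls in BxPC-3 and MIA PaCa-2 in these same libraries. The contrast between them therefore follows in part from that choice and is only a description.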

How the results depend on the processing

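Every count was recomputed under 15 alternatives, 18 that leave out 1 library each and 1 added after seeing the data (ERCC scale without PANC-1 DMSO replicate 1). Over 126 pairs of a named gene and a line these gave 4200 values. Of these, 3948 kept their side of the threshold, and 102 gained and 87 lost a call with the sign kept. The other 63 changed sign with a call in the main fit or in the alternative. Changes of sign with no call in either fit are counted among the 3948. The 10 genes lower in both BxPC-3 and MIA PaCa-2 kept their sign under the 15 alternatives and the 18 that leave out 1 library, 33 in all. For the changes of scale among these, this follows from the downward shift of the other scales. Calls were lost only for RRP1 in BxPC-3 (called in 18 of 33), UTP15 (29 of 33 in each line) and POLR1B in BxPC-3 (32 of 33).

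Counts are given as higher and lower. The shares of all genes change with the setting too. With edgeR and TMM factors, 4111 of all 15354 genes were higher and 4391 lower in BxPC-3, against 6147 and 2908 in the main fit. Such shares are not set beside the counts of this section, which are therefore no measure of the group. On the ERCC scale they were 0 and 35 for BxPC-3, 0 and 40 for MIA PaCa-2, 0 and 7 for PANC-1, and for response differences 23 and 0 (PANC-1 minus BxPC-3), 28 and 0 (PANC-1 minus MIA PaCa-2) and 1 and 0 (MIA PaCa-2 minus BxPC-3). On that scale without PANC-1 DMSO replicate 1 they were 0 and 38, 0 and 42, 0 and 10, 25 and 0, 29 and 0, and 1 and 1. With equal sums they were 3 and 28 for BxPC-3, 5 and 25 for MIA PaCa-2, and 25 and 1, 24 and 2, and 7 and 0 for the differences. With TMM factors 11 were higher in BxPC-3 and 0 in PANC-1, and the differences were 17 and 3, 14 and 7, and 8 and 0. With DESeq2 factors 13 were higher in BxPC-3 and 0 in PANC-1, and 4, 7 and 0 had a lower response difference. edgeR with TMM gave 14 higher in BxPC-3, 0 in PANC-1, 5 lower for PANC-1 minus BxPC-3, then 14 and 8, and 8 and 0; DESeq2 on the reads gave 14 higher in BxPC-3, 5 lower, 14 and 10, and 8 and 0. Without the variance trend 0 were higher in PANC-1. Sample weights gave 10 and 3 in PANC-1, 26 lower for PANC-1 minus BxPC-3, and 16 and 12 for MIA PaCa-2 minus BxPC-3. Fitting the compared groups alone gave 0 higher in PANC-1, 11 lower for PANC-1 minus MIA PaCa-2, and 15 and 12 for MIA PaCa-2 minus BxPC-3. The cause was not tested.

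Leaving out 1 library, the higher counts ranged from 19 to 27 for BxPC-3, 22 to 27 for MIA PaCa-2 and 0 to 7 for PANC-1, and the lower counts from 11 to 16, 11 to 14 and 0 to 3. The differences ranged from 8 to 13 higher and 13 to 22 lower (PANC-1 minus BxPC-3), 6 to 12 and 11 to 24 (PANC-1 minus MIA PaCa-2), and 4 to 11 and 1 to 10 (MIA PaCa-2 minus BxPC-3). The F-tests gave 26 to 41 for the response and 40 to 45 for the DMSO level.

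With the replicate number as a block, 24 and 14 genes were called for BxPC-3, 24 and 13 for MIA PaCa-2 and 0 and 0 for PANC-1. Same-numbered libraries deviated together only in part (correlations from -0.03 to 0.45, the highest for PANC-1 replicate 1). Of 18 libraries, 10 correlated best with their own number, among them every replicate 1 library. Whether the numbers mark shared batches was not tested.

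Log2 fold changes that changed sign were, on the ERCC scale in BxPC-3, NOP56 -0.0365, FBL -0.13, NOP58 -0.13, NOC4L -0.61, NPM1 -0.22, NCL -0.52, RRN3 -0.73, PPAN -0.73, RRP12 -0.91, POLR1D -0.28, TCOF1 -0.75, TWISTNB -0.25, BAZ2A -0.82, NHP2 -0.0241, NHP2L1 -0.16, DCAF13 -0.55, DDX49 -0.19, NOC2L -0.0705, SBDS -0.22, EXOSC5 -0.28 and XRN2 -0.44; in MIA PaCa-2, NOP56 -0.21, FBL -0.12, NOP58 -0.62, NOC4L -0.14, NPM1 -0.29, NCL -0.53, RRN3 -1.10, PPAN -0.93, RRP12 -0.81, POLR1D -0.67, TCOF1 -0.65, TWISTNB -0.88, BAZ2A -0.92, NHP2 -0.16, NHP2L1 -0.21, SHQ1 -1.20, DCAF13 -0.44, DDX49 -0.35, NOC2L -0.26, SBDS -0.51, EXOSC5 -0.28, XRN2 -0.59, MYC -1.10 and CDK7 -1.25. Without PANC-1 DMSO replicate 1 on that scale they were POLR1B -0.58, WDR43 -0.54, SBDS -0.0912 and CDK7 -0.50 in PANC-1. With equal sums they were NCL -0.0566, RRP12 -0.46, TCOF1 -0.29, BAZ2A -0.36 and DCAF13 -0.093 in BxPC-3 and RRP12 -0.17, POLR1D -0.0304, TCOF1 -0.0084, TWISTNB -0.24, BAZ2A -0.28, SHQ1 -0.58, MYC -0.46 and CDK7 -0.62 in MIA PaCa-2. With TMM factors it was BAZ2A -0.0103 in BxPC-3. Changes of sign with no call in either fit are left out here.

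The value of 1 stands for 6.34 to 24.7 reads, so small changes of PPAN, at 25 to 146 reads, were not detectable.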

Other observations

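The high DMSO level of FBL in PANC-1 was shared by the genes around it on chromosome 19, which were looked at after the FBL values were seen. Of the 20 nearest protein-coding genes tested, 10 on each side in RefSeq order, 18 exceeded both other lines in PANC-1 by more than 1 on the log2 scale, where 5.64% of all genes tested (866) did. PAF1, a subunit of an RNA polymerase II elongation complex, was 11.1-fold over BxPC-3 and 19.7-fold over MIA PaCa-2, and SUPT5H, an elongation factor, 8.55-fold over BxPC-3 and 12.6-fold over MIA PaCa-2. PSMC4, a subunit of the proteasome, was 16.1-fold over BxPC-3 and 17.8-fold over MIA PaCa-2, and AKT2, a kinase of growth signalling, 12.7-fold over BxPC-3 and 15.6-fold over MIA PaCa-2. The exceptions were C19orf47 and PLD3, the outermost genes on one side.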
